A study of Mus musculus with 15 samples.

Results

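The small leucine-rich proteoglycans described here are 8 genes of the extracellular matrix, Dcn, Bgn, Aspn, Lum, Fmod, Prelp, Ogn and Podn. They were chosen by symbol, whatever their values, and each symbol matched 1 of the 47069 genes in the deposited count table. The study sequenced left ventricle messenger RNA of C57BL/6 mice in 15 libraries, 5 from each of 3 groups. The rHCI group had a myocardial infarct and, 7 days later, an injection of rHCI, a hydrogel made from recombinant human collagen I, into the heart muscle. The PBS group had the infarct and an injection of phosphate-buffered saline at the same time, and both were harvested 2 days after injection. The Sham group had a sham operation and no treatment, and was age matched at 10 weeks. Against Sham, the effects of infarct and injection therefore cannot be told apart, and whole ventricle tissue was ground without separating scar from muscle. The study describes its 5 libraries per group as biological replicates, and all mice were of 1 strain.

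Small leucine-rich proteoglycans are secreted proteins whose curved leucine-rich core binds collagen and controls how fibrils form, thicken and pack. Many carry glycosaminoglycan chains, chondroitin or dermatan sulfate on Dcn and Bgn and keratan sulfate on Lum and Fmod, while Aspn lacks such chains. Several also bind growth factors and receptors. Dcn holds transforming growth factor β away from its receptors, and Bgn released from matrix is a ligand of the Toll-like receptors Tlr2 and Tlr4. In the heart they are made mainly by fibroblasts, and mice without Dcn or Bgn form poorly organised infarct scars.

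Several of the genes lie side by side in the mouse genome (GRCm38, positions from GENCODE M21). Dcn (ENSMUSG00000019929, chr10:97479609-97518143, plus strand) is followed after 47.0 kb by Lum (ENSMUSG00000036446, chr10:97565128-97572703, plus strand). Prelp (ENSMUSG00000041577, chr1:133910304-133921414, minus strand) and Fmod (ENSMUSG00000041559, chr1:134037254-134048277, plus strand) lie 116.0 kb apart. Of the family, only Omd lies between Aspn (ENSMUSG00000021388, chr13:49544443-49567565, plus strand) and Ogn (ENSMUSG00000021390, chr13:49608046-49624501, plus strand). Cenpp, a gene outside the family on the opposite strand, overlaps Aspn, Omd and Ogn. Bgn (ENSMUSG00000031375, chrX:73483602-73495933, plus strand) and Podn (ENSMUSG00000028600, chr4:108014791-108096445, minus strand) stand apart from the others. All 8 are annotated as protein coding.

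The promoters of both neighbouring pairs on chromosomes 1 and 13 are shown because the genes of each pair rose by different amounts after infarction. Each is the 250 bases before the RefSeq start site on the gene's own strand (GRCm38.p6), at chr1:134037004-134037253 for Fmod, chr1:133921402-133921651 for Prelp (minus strand), chr13:49544193-49544442 for Aspn and chr13:49607765-49608014 for Ogn. Capitals mark matches, on either strand, to 5 motifs. They were the TATA box core, spelled TATAAA, the AP-1 site, spelled TGANTCA, the TEAD site, spelled GGAATG, the short SMAD site, spelled CAGAC, and the box named for its letters CCAAT.
Fmod: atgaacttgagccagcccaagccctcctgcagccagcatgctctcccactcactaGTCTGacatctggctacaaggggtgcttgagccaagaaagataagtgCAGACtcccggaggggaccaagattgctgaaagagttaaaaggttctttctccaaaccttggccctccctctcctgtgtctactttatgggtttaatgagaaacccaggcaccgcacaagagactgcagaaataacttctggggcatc
Prelp: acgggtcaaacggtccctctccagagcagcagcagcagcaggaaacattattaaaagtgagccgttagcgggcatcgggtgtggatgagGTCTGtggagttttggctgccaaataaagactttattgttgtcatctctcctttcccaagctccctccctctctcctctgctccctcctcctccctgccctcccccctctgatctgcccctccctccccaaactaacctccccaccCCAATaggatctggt
Aspn: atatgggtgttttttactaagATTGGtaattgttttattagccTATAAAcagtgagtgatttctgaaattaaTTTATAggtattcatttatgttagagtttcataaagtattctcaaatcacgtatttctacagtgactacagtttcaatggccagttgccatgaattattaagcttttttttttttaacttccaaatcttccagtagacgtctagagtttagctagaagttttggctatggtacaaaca
Ogn: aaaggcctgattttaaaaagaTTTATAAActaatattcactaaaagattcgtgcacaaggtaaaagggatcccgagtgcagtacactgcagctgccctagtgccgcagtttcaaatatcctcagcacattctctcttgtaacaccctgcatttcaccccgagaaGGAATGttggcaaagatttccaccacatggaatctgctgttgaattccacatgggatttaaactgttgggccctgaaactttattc

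The Fmod window held 2 matches to CAGAC. The Prelp window held 1 match to CAGAC and 1 to CCAAT. The Aspn window held 2 matches to TATAAA and 1 to CCAAT, and the Ogn window held 2 overlapping matches to TATAAA, 1 on each strand, and 1 to GGAATG. The matches to TATAAA began at -207 and -178 from the start site in Aspn, and at -229 and -227 in Ogn. None of the 4 windows held TGANTCA, and the promoters of Bgn and Podn, searched in the same way, held none of the 5 motifs. Of 27025 mouse promoters of the same length, 42.1% held CAGAC, 34.5% CCAAT, 12.97% TATAAA, 12.6% GGAATG and 6.87% TGANTCA, so CAGAC and CCAAT are common in any promoter. RefSeq promoters were matched for 6 of the 8 genes, all but Dcn and Lum. The GENCODE start sites of Fmod and Aspn are those of RefSeq, while those of Prelp and Ogn differ by a short distance.

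Depth was high in all libraries, at 32978702 to 103356830 counts, and every member had at least 516 counts in every library. Levels are given as CPM, which are counts brought to 1 library size with TMM factors, as mean ± SD with n = 5 per group. Cardiomyocyte markers were strong in all libraries, with a sum over 6 genes of 32670 to 48530 CPM in rHCI, 30450 to 43730 CPM in PBS and 59310 to 65150 CPM in Sham hearts. PBS 6 stood apart in 1 respect, with 69.4 CPM summed over 5 lung markers, against 0.653 CPM or less in every other library. A field of the sample descriptions was read as a sequencing run label, although the labels do not explain it. It had 3 values, 1 shared by 12 libraries, 1 for PBS 6 and 1 for rHCI 1 and Sham 19. In bulk tissue, more cells of a type and more RNA per cell cannot be told apart, and this holds for every difference given here.

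All 8 genes were higher in both infarcted groups than in Sham hearts, and in all 8 the infarcted and Sham libraries did not overlap. They did not rise alike. Fmod, Aspn, Bgn and Lum rose most, while Dcn, Ogn, Prelp and Podn rose less. No member passed the test between rHCI and PBS hearts.

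**Figure D1:**
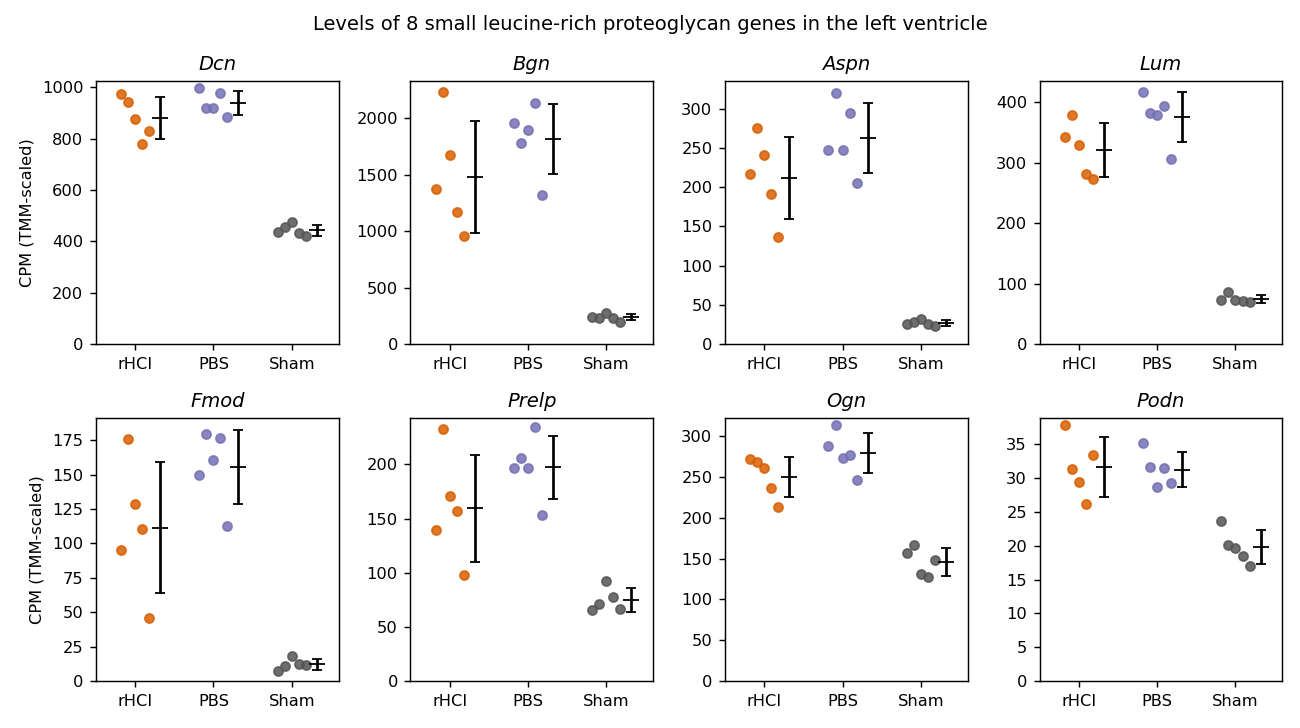
Level of each of the 8 genes in CPM (vertical axes, starting at 0) in the 5 rHCI, 5 PBS and 5 Sham libraries. Points are libraries, and the bar to the right of each group is its mean ± SD. In every panel the rHCI and PBS points lie above all Sham points and overlap each other.

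Dcn, decorin, is the family member most studied as a brake on transforming growth factor β. It had 974, 942, 878, 779 and 829 CPM in rHCI hearts (rHCI 1, 3, 7, 11 and 13), 995, 921, 917, 977 and 883 CPM in PBS hearts (PBS 2, 6, 9, 12 and 14) and 438, 455, 474, 432 and 419.6 CPM in Sham hearts (Sham 16 to 20). The values of every other gene are given in this library order. Even the lowest infarcted heart, rHCI 11, was above the highest Sham heart, and spread within groups was small. Means were 880.3 ± 79.9 CPM in rHCI, 939 ± 46.1 CPM in PBS and 444 ± 21.4 CPM in Sham hearts.

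Bgn, biglycan, is the closest relative of Dcn and carries the same kind of chains. It had 1372, 2226.5, 1672, 1171 and 961 CPM in rHCI hearts, 1952, 1781, 1893, 2131 and 1316 CPM in PBS hearts and 242, 234, 274, 235 and 200.2 CPM in Sham hearts. The infarcted hearts ranged more than 2-fold among themselves, with rHCI 3 highest and rHCI 13 lowest, but all lay far above Sham. Means were 1480.4 ± 493 CPM in rHCI, 1815 ± 306 CPM in PBS and 237 ± 26.4 CPM in Sham hearts.

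Aspn, asporin, is the third close relative of Dcn and is known to compete with it for collagen and to bind transforming growth factor β. It had 216, 276, 240.4, 191 and 137 CPM in rHCI hearts, 247, 320.2, 248, 294 and 205 CPM in PBS hearts and 25.5, 28.2, 32.4, 25.6 and 23.3 CPM in Sham hearts. The lowest infarcted heart, rHCI 13, was still above the highest Sham heart, Sham 18. Means were 212 ± 52.3 CPM in rHCI, 263 ± 44.9 CPM in PBS and 27.02 ± 3.46 CPM in Sham hearts. Exons of Cenpp on the opposite strand overlap Aspn, and the strand setting of the counting is not given in the sources used here. Cenpp had 54 to 210 counts per library, against 1303 to 34858 for Aspn.

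Lum, lumican, is a keratan sulfate proteoglycan that limits fibril thickness. It had 343, 378, 329, 281 and 273 CPM in rHCI hearts, 417, 383, 379, 394 and 307 CPM in PBS hearts and 72.6, 86.2, 73.1, 70.6 and 68.9 CPM in Sham hearts. The infarcted hearts kept within a narrow range, and Sham 17 was set off above the other 4 Sham hearts. Means were 321 ± 43.9 CPM in rHCI, 376 ± 41.4 CPM in PBS and 74.3 ± 6.87 CPM in Sham hearts.

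Fmod, fibromodulin, binds the same region of collagen as Lum and is known to guide collagen crosslinking. It had 95.4, 176, 129, 110.3 and 45.8 CPM in rHCI hearts, 149, 179.5, 160.3, 176 and 113 CPM in PBS hearts and 7.19, 10.6, 18.3, 12.3 and 11.6 CPM in Sham hearts. It was the most variable member in every group, with a coefficient of variation of 42.8% in rHCI, 17.2% in PBS and 33.8% in Sham hearts. rHCI 13 had well under the level of the other infarcted hearts, yet was above every Sham heart. Means were 111 ± 47.6 CPM in rHCI, 156 ± 26.8 CPM in PBS and 11.997 ± 4.05 CPM in Sham hearts.

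Prelp, a member of the same class as Lum and Fmod, links collagen to heparan sulfate proteoglycans. It had 139, 233, 171, 157 and 97.8 CPM in rHCI hearts, 196, 206, 196, 235 and 153 CPM in PBS hearts and 65.8, 70.7, 92.2, 77.6 and 66.4 CPM in Sham hearts. This gene came closest to an overlap, since rHCI 13 was only just above Sham 18. Means were 159 ± 49.3 CPM in rHCI, 197 ± 29.3 CPM in PBS and 74.5 ± 10.9 CPM in Sham hearts. The opposite-strand gene Gm15851, whose exons overlap Prelp, had 0 to 4 counts per library.

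Ogn, osteoglycin or mimecan, is a smaller relative that also binds collagen. It had 272, 269, 261, 236 and 214 CPM in rHCI hearts, 288, 314, 273, 277 and 247 CPM in PBS hearts and 157, 166, 131, 127 and 148 CPM in Sham hearts. The infarcted hearts lay close together, and the lowest, rHCI 13, was clear of Sham. Means were 250.3 ± 24.8 CPM in rHCI, 279.7 ± 24.2 CPM in PBS and 146 ± 16.7 CPM in Sham hearts.

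Podn, podocan, belongs to a more distant class and is known in mouse arteries as a restraint on smooth muscle growth. It had 37.9, 31.3, 29.4, 26.1 and 33.4 CPM in rHCI hearts, 35.2, 31.6, 28.7, 31.6 and 29.4 CPM in PBS hearts and 23.7, 20.2, 19.7, 18.4 and 16.99 CPM in Sham hearts. Its lowest infarcted heart was rHCI 11, which was only a little above the highest Sham heart, Sham 16. Means were 31.6 ± 4.41 CPM in rHCI, 31.3 ± 2.54 CPM in PBS and 19.8 ± 2.51 CPM in Sham hearts.

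The hearts in which members were low or high were largely the same from gene to gene. Within the rHCI group rHCI 13 was lowest for 6 of the 8 genes (all but Dcn and Podn) and rHCI 3 was highest for 5. Within the PBS group PBS 14 was lowest for 7 genes, all but Podn. The same 2 low hearts, rHCI 13 and PBS 14, had the highest summed cardiomyocyte markers of their groups, at 48530 CPM in rHCI 13 and 43730 CPM in PBS 14, and the part of this in the low values was not tested. Summed over the 8 genes, levels were 3446 ± 746 CPM in rHCI, 4056 ± 478 CPM in PBS and 1034 ± 62.3 CPM in Sham hearts.

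Levels of different genes were compared per length, as CPM per kb of annotated exon, pooled over all transcripts of a gene. That length was 5838 bases for Dcn (5 transcripts) and 6099 for Bgn (8), against 2448 for Lum and 2566 for Ogn (1 each). Which transcripts were present was not measured, so the order between genes depends on these lengths. Without them, Bgn was above Ogn in Sham hearts, at 237 against 146 CPM. In Sham hearts the order was Dcn (76.0 ± 3.67), Ogn (56.9 ± 6.50), Bgn (38.9 ± 4.33), Lum (30.4 ± 2.81), Prelp (20.6 ± 3.03), Aspn (11.5 ± 1.47), Podn (4.64 ± 0.587) and Fmod (3.63 ± 1.23 CPM per kb). Of the neighbours in that order, Bgn and Lum had overlapping ranges, and so had Podn and Fmod. In infarcted hearts Bgn led, at 243 ± 80.8 CPM per kb in rHCI and 298 ± 50.2 CPM per kb in PBS hearts, ahead of Dcn at 151 ± 13.7 CPM per kb in rHCI and 161 ± 7.90 CPM per kb in PBS hearts. Lum came next, at 131 ± 17.9 CPM per kb in rHCI and 154 ± 16.9 CPM per kb in PBS hearts. Aspn and Ogn followed at levels that their spread does not separate, with 90.1 ± 22.2 CPM per kb of Aspn and 97.5 ± 9.66 CPM per kb of Ogn in rHCI hearts, and 112 ± 19.1 CPM per kb of Aspn and 109 ± 9.42 CPM per kb of Ogn in PBS hearts. Prelp, Fmod and Podn closed the order in both infarcted groups. Ranges also overlapped for Dcn and Lum and for Prelp and Fmod in both infarcted groups. They did so for Bgn and Dcn and for Aspn and Prelp in rHCI hearts, and for Lum and Aspn in PBS hearts. In each of these pairs the leading gene was higher in all 5 libraries.

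The make-up of the family thus differed between infarcted and Sham hearts. The size of each share rests on the same pooled lengths. Per length, Dcn made up 19.4 ± 3.02% of the 8 genes' summed level in rHCI, 17.2 ± 1.60% in PBS and 31.4 ± 0.627% in Sham hearts. Ogn made up 12.5 ± 1.46% in rHCI, 11.6 ± 0.922% in PBS and 23.5 ± 2.63% in Sham hearts. Bgn went the other way, with 29.9 ± 3.85% in rHCI, 31.5 ± 2.26% in PBS and 16.01 ± 1.24% in Sham hearts. Aspn made up 11.2 ± 0.892% in rHCI, 11.8 ± 1.23% in PBS and 4.72 ± 0.382% in Sham hearts. The ranges of infarcted and Sham libraries did not overlap for any of these 4 shares.

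**Figure D2:**
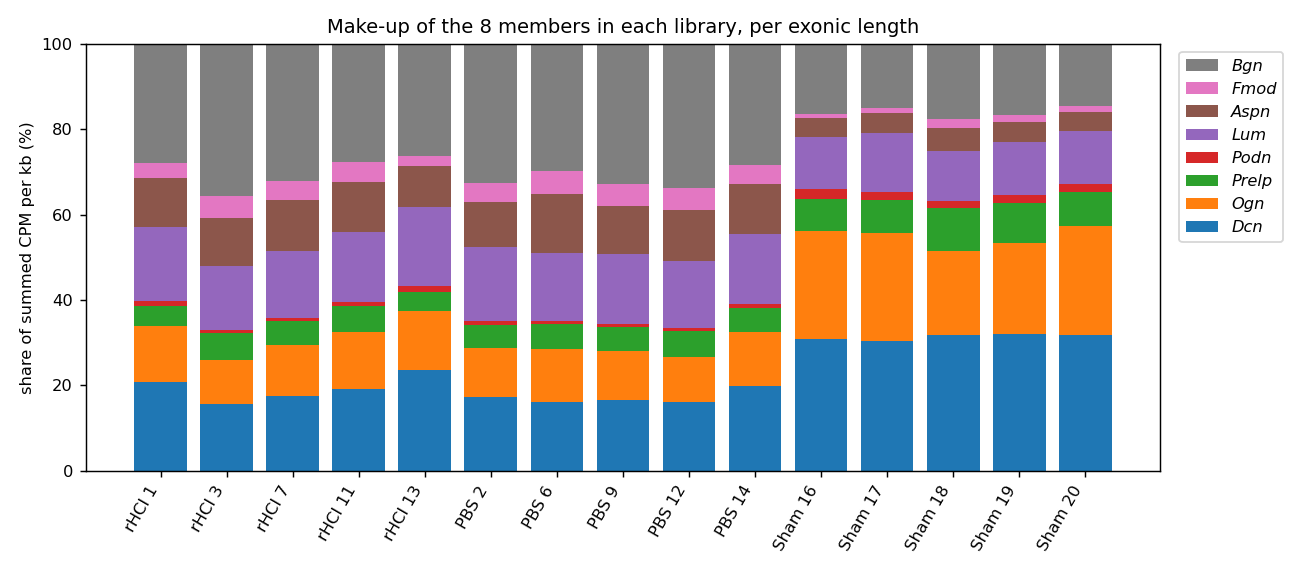
Share of each gene in the summed CPM per kb of the 8 genes (vertical axis, %), 1 bar per library, rHCI, PBS and Sham from left to right. Dcn and Ogn each fill more of every Sham bar than of any rHCI or PBS bar, and Bgn, Fmod and Aspn fill less.

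PBS against Sham shows what differed 2 days after saline was injected into an infarcted heart. All 8 genes rose and passed the test (edgeR quasi-likelihood test over all genes, Benjamini-Hochberg adjusted p of 2.87e-10 to 1.37e-05). The background was high, since 71.4% of the 16207 genes tested were called and 36.5% were called higher. The groups did not overlap for any member. Of all genes tested, 31.6% were higher in PBS without overlap. The median log2 fold change of the members was 1.87, against -0.01 for all genes tested.

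Fmod rose most, with a log2 fold change of 3.70 ± 0.21 (SE, 95% interval 3.25 to 4.16), and ranked 219 of 16207 genes by rise. Aspn followed with 3.28 ± 0.12 (3.02 to 3.55), Bgn with 2.93 ± 0.12 (2.66 to 3.20) and Lum with 2.34 ± 0.09 (2.15 to 2.52). As ratios of mean CPM these are rises of 12.98-fold for Fmod, 9.73-fold for Aspn, 7.66-fold for Bgn and 5.06-fold for Lum. Prelp had a log2 fold change of 1.40 ± 0.11 (1.16 to 1.65), Dcn of 1.08 ± 0.05 (0.96 to 1.196), Ogn of 0.94 ± 0.08 (0.76 to 1.11) and Podn of 0.66 ± 0.09 (0.47 to 0.84). Of the 8 members, 6 had log2 fold changes of at least 1, that is, at least 2-fold, as had 16.5% of all genes tested.

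rHCI against Sham gave the same ranking, with smaller values for 7 of the 8 genes, all but Podn. Again all 8 genes rose (adjusted p of 1.39e-08 to 0.000249, edgeR), where 63.9% of 16076 genes tested were called and 34.1% were called higher. The groups did not overlap for any member. Of all genes tested, 27.1% were higher in rHCI without overlap. Log2 fold changes were 3.23 ± 0.33 for Fmod, 2.98 ± 0.17 for Aspn, 2.65 ± 0.20 for Bgn, 2.12 ± 0.10 for Lum, 1.10 ± 0.19 for Prelp, 0.996 ± 0.072 for Dcn, 0.79 ± 0.09 for Ogn and 0.68 ± 0.11 for Podn. Of the 8 members, 5 had at least 1 and Dcn just under it, where 14.4% of all genes were called at least 2-fold higher. The members' median was 1.61, against 0.00 for all genes tested. Both comparisons use the same 5 Sham libraries.

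**Figure D3:**
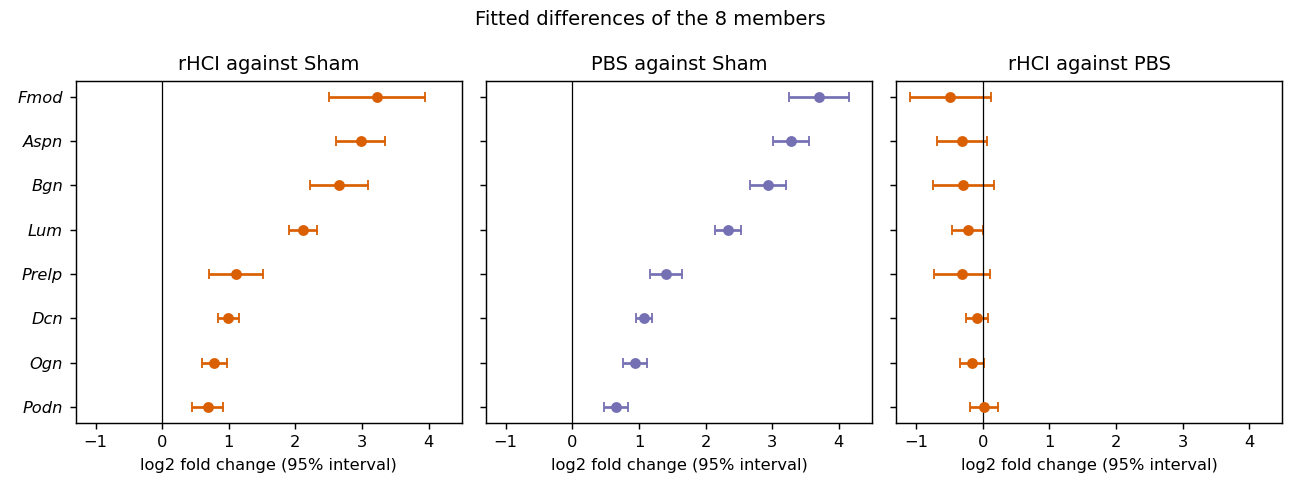
Log2 fold change of each gene with its 95% interval (horizontal axis) for rHCI against Sham, PBS against Sham and rHCI against PBS. All intervals of the 2 comparisons with Sham lie above 0, while those of rHCI against PBS all include 0.

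rHCI against PBS asks whether the hydrogel changed these genes beyond the saline injection. No member passed the test (adjusted p of 0.871 to 0.966, edgeR), and none of 16383 genes tested did, 0% of them. At an unadjusted p under 0.05 there were 579 genes, 3.53%, with edgeR and 2019 with limma-voom. With 1 replicate left out, edgeR gave from 362 (without PBS 2) to 2066 (without rHCI 3). After adjustment DESeq2 called 6 genes and limma-voom 3. Of the 8 members, 7 had values below 0, from -0.48 for Fmod (95% interval -1.09 to 0.12) to -0.09 for Dcn (-0.26 to 0.07). Between them lay Aspn at -0.31 (-0.69 to 0.07), Prelp at -0.31 (-0.73 to 0.12), Bgn at -0.29 (-0.75 to 0.17), Lum at -0.23 (-0.46 to 0.01) and Ogn at -0.16 (-0.34 to 0.02). Podn was at 0.02 (-0.19 to 0.23). The groups overlapped for every member, whereas 0.501% of all genes did not overlap. rHCI 13, the lowest heart, moved these values: without it Fmod was at -0.29, Bgn and Prelp at -0.17 and Aspn at -0.19, while without rHCI 3 Fmod was at -0.71 and Bgn at -0.49, none of them called.

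Whether members rose by different amounts was tested directly with log2 ratios of counts within each library, which do not depend on how libraries are scaled. Relative to Dcn, the PBS hearts exceeded the Sham hearts by 2.66 for Fmod, 2.19 for Aspn, 1.84 for Bgn and 1.25 for Lum. For each the p was 0.00794, the smallest that an exact two-sided permutation test of 5 against 5 allows, or 0.0137 after Benjamini-Hochberg adjustment over the 45 ratios tested. Podn fell relative to Dcn, by 0.42 (exact permutation p = 0.00794, adjusted 0.0137). Prelp was 0.32 higher relative to Dcn but missed the threshold after adjustment (exact permutation p = 0.0317, adjusted 0.0529), and Ogn differed by -0.14 (exact permutation p = 0.183, adjusted 0.257). In rHCI against Sham the differences relative to Dcn were 2.16 for Fmod, 1.96 for Aspn, 1.60 for Bgn, 1.12 for Lum and -0.31 for Podn, each with an exact permutation p of 0.00794 and an adjusted p of 0.0137. Prelp was at 0.07 (exact permutation p = 0.778) and Ogn at -0.20 (exact permutation p = 0.0952) in that comparison.

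None of the 8 genes kept pace with Col1a1, a chain of collagen I. Col3a1 had more counts than Col1a1 in infarcted hearts, at 6151 ± 1181 CPM in rHCI and 7138 ± 1071 CPM in PBS hearts. Col1a1 had 3920.5 ± 934 CPM in rHCI, 4656 ± 789 CPM in PBS and 175 ± 24.3 CPM in Sham hearts. Relative to it, all fell in PBS against Sham, with log2 differences of -0.98 for Fmod, -1.45 for Aspn, -1.80 for Bgn, -2.39 for Lum, -3.32 for Prelp, -3.64 for Dcn, -3.78 for Ogn and -4.06 for Podn. In rHCI against Sham the differences ran from -1.31 for Fmod to -3.79 for Podn. All 16 ratios had an exact permutation p of 0.00794 and an adjusted p of 0.0137. Such a fall is not particular to these genes. Col1a1 rose by a log2 fold change of 4.72 in PBS against Sham (RLE factors). Of all genes tested, 95% were below 2.25 in that comparison and below 2.06 in rHCI against Sham. Between rHCI and PBS no ratio passed, to Dcn or to Col1a1, with exact permutation p of 0.103 to 0.730.

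**Figure D4:**
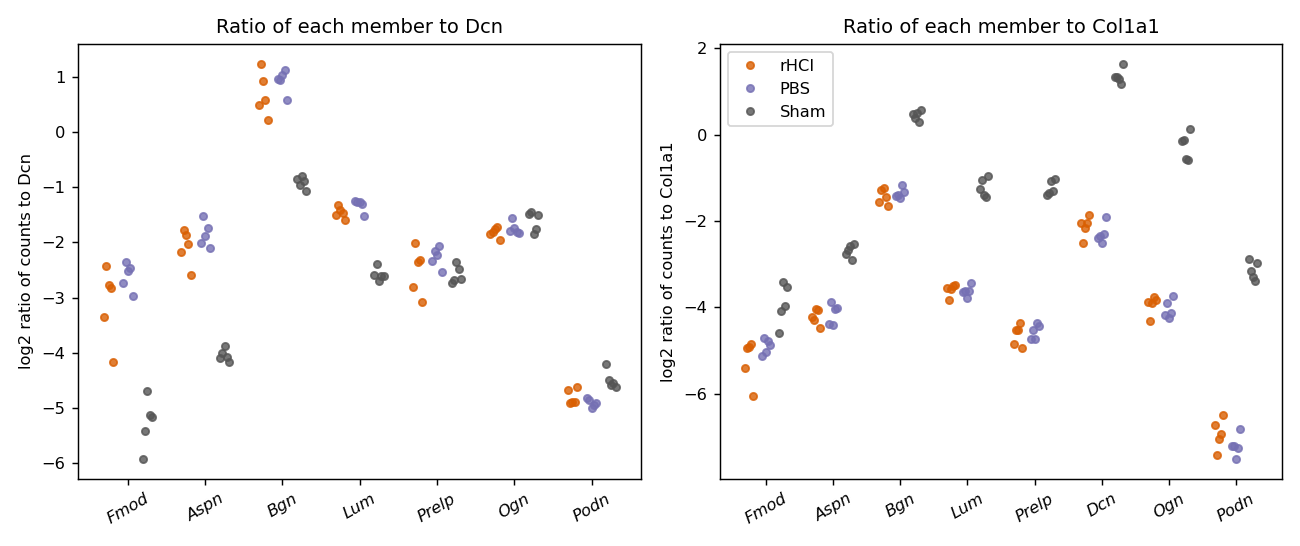
Log2 ratio of counts of each gene to Dcn (left panel) and to Col1a1 (right panel), 1 point per library, in the order rHCI, PBS and Sham for each gene. Ratios of Fmod, Aspn, Bgn and Lum to Dcn are higher in all infarcted than in all Sham hearts, and every ratio to Col1a1 is lower.

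Genes that are neighbours on a chromosome did not rise by the same amount. In PBS against Sham Fmod had a log2 fold change of 3.70 and Prelp of 1.40, with intervals that do not meet, and Optc, which adjoins Prelp, did not pass at 0.33 ± 0.27 (adjusted p = 0.274, edgeR). On chromosome 13, in the order of the genes, Ecm2 had 0.74 ± 0.06, Aspn 3.28 ± 0.12, Omd 1.62 ± 0.17 and Ogn 0.94 ± 0.08. On chromosome 10 Dcn had 1.08 ± 0.05 and Lum 2.34 ± 0.09, then Kera, which was too low to test, and Epyc 2.00 ± 0.38. Of these neighbours only Lum and Dcn were compared by a test of their ratio, given above. The promoter windows did not set the genes of a pair wholly apart, since Fmod and Prelp both held CAGAC, and Aspn and Ogn both held TATAAA. Fmod and Aspn, the steeper risers of each pair, had none of the 5 motifs in common. The part of any motif in the rises was not tested.

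Among the other 10 genes of the family, 9 were tested and 6 rose in PBS against Sham, where 36.5% of all genes tested were called higher, a share that is also the background of the list counts below (34.1% in rHCI against Sham). Podnl1, a relative of Podn, averaged 0.418 ± 0.0520 CPM in rHCI, 0.868 ± 0.452 CPM in PBS and 0.04998 ± 0.0247 CPM in Sham hearts, with at most 7 counts in any Sham library, so its log2 fold change of 4.03 ± 0.53 in PBS against Sham is imprecise. Tsku, a secreted relative that binds several growth factors, averaged 12.9 ± 2.77 CPM in rHCI, 13.9 ± 1.37 CPM in PBS and 2.85 ± 0.416 CPM in Sham hearts, a log2 fold change of 2.29 ± 0.11 in PBS. Epyc, Omd, Chad and Ecm2 rose as well, Chad by 1.08 ± 0.27 (adjusted p = 0.00262, edgeR). Chad, chondroadherin, did not pass in rHCI hearts, at 0.70 ± 0.40 (adjusted p = 0.144), and the difference between rHCI and PBS hearts was not called. Chadl, Nyx and Optc did not pass in PBS against Sham, although limma-voom called Nyx lower and scaling by library totals called Chadl higher. In rHCI against Sham 5 of 8 tested rose and Nyx fell by 0.46 ± 0.17 (adjusted p = 0.0305, edgeR), which was no longer called when libraries were scaled by their totals alone.

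The enzymes that build the sugar chains of these proteins mostly rose with them. Of 21 linkage and chondroitin or dermatan sulfate enzymes tested, 18 rose and 2 fell in PBS against Sham, and the median log2 fold change was 1.15, against -0.01 for all genes. Chsy3, which extends chondroitin chains, rose by 2.71 ± 0.17, Dse, which turns chondroitin into dermatan sulfate, by 2.24 ± 0.09, and Xylt1, which starts the chain on the core protein, by 2.12 ± 0.09. The falls were small, -0.37 ± 0.05 for Fam20b and -0.23 ± 0.04 for B3gat3, both enzymes of the linkage region. With scaling by library totals B3gat3 was at 0.04 and not called. Of 7 keratan sulfate enzymes 5 rose and 1, B4galt4, fell by 0.23 ± 0.07, again at 0.04 with library totals. B3gnt7, which extends keratan sulfate, rose by 2.86 ± 0.30 to 1.33 CPM on average in PBS hearts, against 0.176 CPM in Sham hearts, and the sulfotransferases Chst2 and Chst1 rose by 1.80 ± 0.12 and 1.51 ± 0.13. The counts were the same in rHCI against Sham, 18 and 2 of 21, and 5 and 1 of 7, but none of those falls was called there with library totals.

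The collagens that these proteins bind rose too. All 13 were higher in PBS against Sham, around a median of 4.02 on the log2 scale, with values from 0.82 ± 0.09 for Col5a3 to 7.47 ± 0.26 for Col11a1, a fibril-nucleating chain. Col2a1, the main collagen chain of cartilage, rose by 6.71 ± 0.52 and Col12a1, which coats fibrils, by 5.31 ± 0.21. Of 13 proteases that cleave members, 10 rose. Mmp12, the macrophage elastase, rose by 7.38 ± 0.29, Mmp14 by 3.09 ± 0.13 and Mmp2, which Mmp14 activates, by 2.56 ± 0.11. Bmp1, which removes the propeptide of Bgn, rose by 2.17 ± 0.10. Of 21 receptors and growth factors bound by members 19 rose, among them Ccn4 by 3.95 ± 0.18, the growth factor Tgfb3 by 2.89 ± 0.09 and the Bgn receptor Tlr2 by 2.63 ± 0.09, while Erbb4 fell by 0.60 ± 0.12. In rHCI against Sham the counts were 13 of 13, 10 of 13, and 19 higher with 1 lower of 21, the fall of Erbb4, which was not called with library totals or limma-voom. No gene of any of these lists passed in rHCI against PBS.

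Markers of other cell types differed between infarcted and Sham hearts alongside these genes. Postn, periostin, a matrix protein of activated fibroblasts, averaged 1277 ± 331 CPM in rHCI, 1570.3 ± 232 CPM in PBS and 32.1 ± 6.14 CPM in Sham hearts. In PBS against Sham 5 of 6 activated fibroblast markers rose, and their sum was 1246 to 2307 CPM in rHCI, 1549 to 2260 CPM in PBS and 160.5 to 287 CPM in Sham hearts. All 5 markers of late scar fibroblasts rose, Chad among them, with sums of 275 to 777 CPM in rHCI, 574 to 682 CPM in PBS and 25.2 to 55.0 CPM in Sham hearts. Of 6 resting fibroblast markers 4 rose and 2 fell, with a median log2 fold change of 1.08 in PBS against Sham. Their sums, in which the most abundant markers weigh most, overlapped. These were 1569 to 1728 CPM in rHCI, 1494 to 1770 CPM in PBS and 1514 to 1702 CPM in Sham hearts. All 5 macrophage markers rose, with sums of 309.8 to 378 CPM in rHCI, 305 to 406 CPM in PBS and 109 to 139.9 CPM in Sham hearts. All 6 epicardial and mesothelial markers rose, with sums of 59.1 to 115 CPM in rHCI, 58.6 to 115 CPM in PBS and 17.7 to 28.9 CPM in Sham hearts, and 5 of 6 cardiomyocyte markers fell. Of 5 smooth muscle and pericyte markers 3 fell and 1 rose, or 2 and 2 with library totals, with sums of 984.8 to 1203 CPM in rHCI, 979.6 to 1130.0 CPM in PBS and 1369 to 1600.0 CPM in Sham hearts. All 3 tendon-like markers rose, with sums of 8.34 to 16.7 CPM in rHCI, 13.96 to 23.7 CPM in PBS and 8.73 to 12.1 CPM in Sham hearts. Of 5 endothelial markers 2 rose, and of 4 Schwann cell markers 1 fell, and the sums of both lists overlapped between PBS and Sham hearts. All these counts are for PBS against Sham. With library totals there, 5 endothelial and 6 activated fibroblast markers rose, 1 resting fibroblast marker fell and no Schwann cell marker did. In rHCI against Sham 4 of 5 late scar, 5 of 6 epicardial and 2 of 3 tendon-like markers rose. There 2 smooth muscle and pericyte markers fell and no Schwann cell marker did. The other counts were the same in that comparison. None of these markers was at 0 throughout a group, and the part of any cell type in the members' rises was not tested. PBS 6, the heart with lung markers, was highest of its group for Fmod, Ogn and Aspn, and without it their log2 fold changes were 3.65, 0.89 and 3.20.

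Among the 10 infarcted hearts, 7 of the 8 members varied with Col1a1 by Pearson's r. The share of all genes that do so was not computed, so the count does not show a trait particular to these members. After the means of each group were subtracted, Pearson's r of log2 CPM with Col1a1 was 0.96 for Lum, 0.93 for Bgn, 0.80 for Prelp, 0.78 for Aspn, 0.76 for Ogn, 0.75 for Fmod and 0.73 for Dcn, with permutation p of 0.0104 to 0.0310 after adjustment over the 8 genes. Podn was at 0.26 (permutation p = 0.527). Spearman's rho was lower, from 0.79 for Lum to 0.48 for Fmod and 0.12 for Podn, and none passed after adjustment (lowest permutation p 0.0541). Without PBS 14 and rHCI 3, the hearts farthest from the median on the Col1a1 axis, r was 0.91 for Lum, 0.80 for Bgn and 0.74 for Dcn, and 0.69 or less for the others, down to 0.47 for Prelp and 0.31 for Podn. None then had a permutation p below 0.05 (n = 8, lowest 0.0831, for Lum), so the calls, though not the size of r for Lum, Bgn and Dcn, rest on those hearts. Within the shared run (n = 8), r was 0.97 for Lum and 0.94 for Bgn, with permutation p of 0.0103 and 0.0101.

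**Figure D5:**
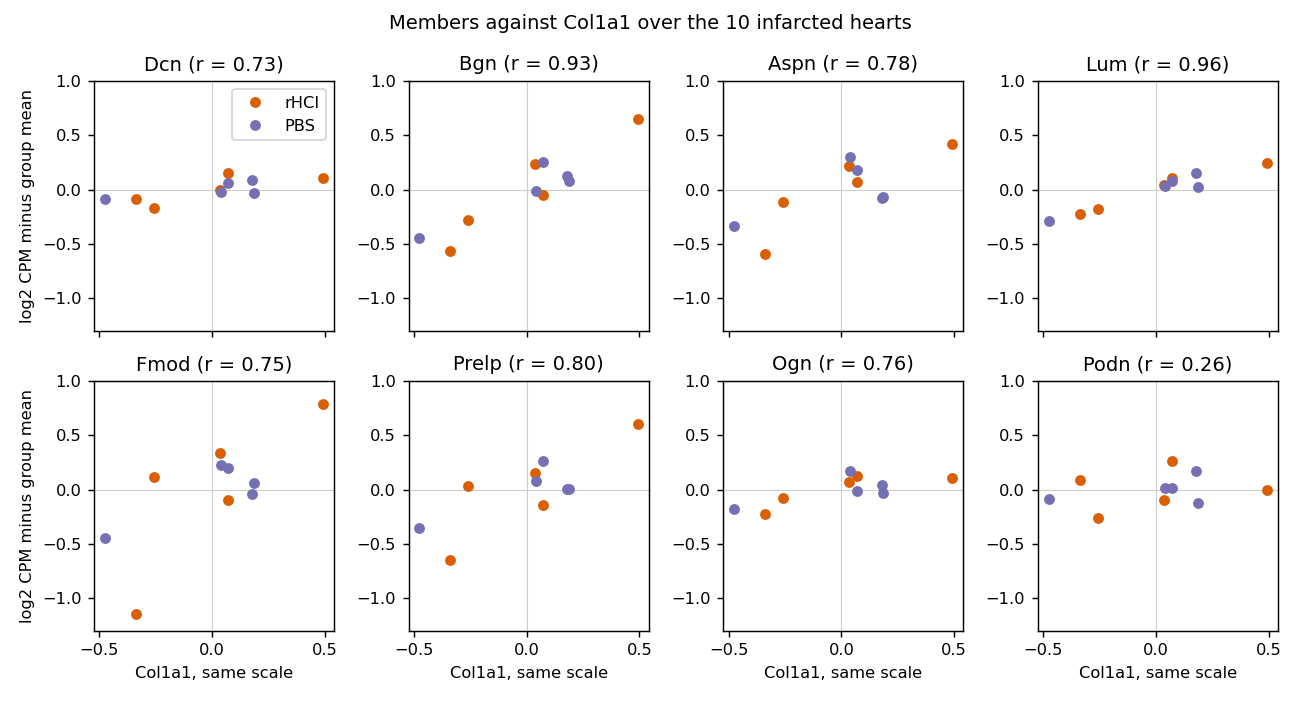
Each gene (vertical axes) against Col1a1 (horizontal axes) over the 10 infarcted hearts, as log2 CPM minus the mean of its group. Points are hearts of the rHCI and PBS groups. Lum and Bgn lie close to a line, Podn does not, and PBS 14 at the left and rHCI 3 at the right set the span.

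For each member, the genes whose log2 CPM followed it most closely were sought among 10352 genes, as a description with no test. After subtraction of group means over the 15 libraries, Bgn was closest to P3h3 (r = 0.99), a collagen-modifying protein, and Col5a2 (r = 0.98). Lum was closest to Col14a1 and Fap (both r = 0.95), Fmod to Comp (r = 0.98), a cartilage matrix protein, and Fam102b (r = 0.96), and Prelp to Sox9 (r = 0.97) and Slc43a3 (r = 0.96). Aspn was closest to Hdac7 (r = 0.95) and Nfkb1 (r = 0.94), Dcn to Gas1 and Il1r1 (both r = 0.89), Ogn to Anks3 (r = 0.89) and Pycr1 (r = 0.83), and Podn to Prrx1 (r = 0.86) and Mrc1 (r = 0.80). Over all 15 libraries without that subtraction the closest genes were Ltbp3 for Bgn, Col14a1 for Lum, Comp for Fmod, Col12a1 for Aspn, Bicc1 for Dcn, Erg for Prelp, Pycr1 for Ogn and Mrc1 for Podn, with r of 0.96 to 0.999, and these points share the difference between infarcted and Sham hearts.

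Scaling did not decide these directions. With library totals in place of TMM factors the median log2 fold change of all genes was 0.27 in PBS against Sham and 0.22 in rHCI against Sham, and calls split into 8938 higher and 2610 lower in PBS, against 5921 and 5653 with TMM. In rHCI the split was 8011 and 2128, against 5487 and 4781 with TMM. All 8 members stayed called higher in both comparisons under either scaling.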

How the data were processed

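Stranded messenger RNA libraries of 15 left ventricles were sequenced, per the labels' protocols. What the authors deposited were raw read counts per gene, whole numbers with a different total in each library. Trimmomatic, STAR, Cufflinks and edgeR, with GRCm38 and mm10, appear in the submitters' processing notes. Not given in the sources used here are the counting tool, its strand setting and its annotation. Totals were 32978702 to 103356830 counts per library, and 30 replicate pairs were compared, all of which differed beyond sampling noise.

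Each pair of groups was tested on its 10 libraries with edgeR 4.0.16 in R 4.3.3 (TMM, filterByExpr, glmQLFit, glmQLFTest, two-sided), with Benjamini-Hochberg adjustment over all genes and a threshold of 0.05. The fit was tested on simulated data. Log2 fold changes carry a standard error, and CPM use TMM factors of all 15 libraries. Log2 ratios had 0.5 counts added and were compared by exact permutation. Correlations used 100000 permutations within groups. Exon lengths are those of all transcripts in GENCODE M21, to which 46488 of 47069 identifiers matched. Promoters are from RefSeq.

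The members, the lists and the naming rule were chosen with earlier results of these data known. All 8 members are named, and from each list the 3 largest called changes in PBS against Sham, plus every family gene; of those from the marker lists only Postn is given with its levels. Bmp1, Col5a3, Erbb4, B3gat3, Fam20b and B4galt4 were added after their values were seen. The 2 genes most like each member needed a mean of 5 CPM and a symbol that is not a predicted name. Alternatives were RLE factors, library totals, DESeq2 1.42.0, limma-voom (limma 3.58.1), other filters, all libraries in 1 fit, the run label as covariate, the shared run alone, glmTreat at 1.2-fold, other added counts and each replicate left out.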

Additional observations from a re-analysis of the deposited data

Results flagged for a closer look

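Of 24 groups of 5 values examined, 8 genes in 3 groups each, 1 had a sample set apart from the rest. Lum in Sham 17 was at 86.23 CPM, above the other 4 Sham hearts, and its gap to the nearest was 0.755 of the group's range, past the critical value of 0.71 for 5 samples. Chance alone sets off about 1 in 20 such groups. Without Sham 17 the log2 fold change of Lum in PBS against Sham was 2.39.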

How the results depend on the processing

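All 8 members stayed called higher in PBS against Sham and in rHCI against Sham, and none was called in rHCI against PBS, under every alternative run, each replicate left out included. In PBS against Sham 11147 to 11602 genes were called with 1 replicate left out, against 11574 in all libraries, and in rHCI against Sham 9643 to 10606, against 10268. A minimum fold change of 1.2 (glmTreat) left 6157 genes called in rHCI against Sham. In rHCI against PBS, 0 genes were called, 6 with DESeq2, 3 with limma-voom and 0 to 3 with 1 replicate left out, the 3 being without rHCI 13. The sign of Podn in rHCI against PBS turned with library totals (-0.027), within the shared run (-0.052) and when 1 replicate was left out (-0.055 to 0.082). So did the ratio of Prelp to Dcn in rHCI against Sham (-0.058 to 0.21) and that of Lum to Col1a1 in rHCI against PBS (-0.013 to 0.090) with 1 replicate left out. None of these was called, and the cause was not tested. The ratio of Prelp to Dcn in PBS against Sham ranged from 0.27 to 0.39 with 1 replicate left out. The correlations with Col1a1 without rHCI 13 and rHCI 11, the hearts with the lowest Col1a1, had a permutation p below 0.05 for Bgn (r = 0.89, p = 0.0397) and Lum (r = 0.94, p = 0.0201). Leaving out PBS 14 and rHCI 3, given with the results, was chosen after seeing the data. No paired analysis was possible because the groups share no replicate numbers. Depth limits Kera, Optc, Nyx and Podnl1, which had at most 22, 23, 55 and 132 counts in any library, and no member. It also limits Epyc, which had 4 counts in Sham 16.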
